A study of Mus musculus with 72 samples.

Results

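The integrated stress response genes Atf4, Ddit3, Trib3, Ppp1r15a, Chac1, Asns, Psat1, Phgdh, Slc7a11 and Hspa5 were described in mouse embryonic stem cells with and without functional Nup133, before and during a neural differentiation. These 10 genes were taken by symbol from the 45321 genes that the deposited transcript counts could be matched to, and each was read from the transcript with its highest total count. All 10 passed the filter on low counts and were among the 18273 genes tested.

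In the integrated stress response, a kinase phosphorylates the initiation factor eIF2 when amino acids run short, unfolded proteins collect in the endoplasmic reticulum, haem is lacking or double-stranded RNA is present. Most protein synthesis then slows, while the mRNA of the transcription factor ATF4 is translated better, so the response begins with protein and not with Atf4 mRNA. ATF4, often with DDIT3 (CHOP) or a C/EBP partner, binds composite elements at genes for amino acid synthesis, amino acid uptake and feedback control. Hspa5 encodes BiP, the chaperone of the endoplasmic reticulum, and is driven chiefly by ATF6 and XBP1 of the unfolded protein response.

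Nup133 belongs to the Y-complex of proteins that builds the frame of nuclear pores, and the study asked how its loss alters the transcriptome of pluripotent and differentiating cells. The control groups held 3 samples at each day: replicates 1 and 2 of the line HM1 (Nup133+/+, XY, 40 chromosomes) and the line 1A4 (Nup133+/+, Sox1gfp/+, XY, 40 chromosomes). The mutant groups held line 14 (Nup133-/-, XY, 40 chromosomes), line 19 (Nup133-/-, XY, given as likely 40 chromosomes) and line 319 (Nup133merm/merm, Sox1gfp/+, XX, 42 chromosomes with extra copies of 8 and 12). Lines 14 and 19 were made from HM1 by CRISPR/Cas9 editing, and 1A4 and 319 came from blastocysts, so Nup133-/- was measured in 2 lines and Nup133merm/merm in 1, and line 319 also differed from its control in sex chromosomes and chromosome number. Day 0 cells had grown in serum and LIF, the cytokine that sustains pluripotency, and were separated from their mouse embryonic fibroblast feeders by plating. Day 2 cells had been in the serum-free neural medium N2B27, and day 3 cells had received 1 µM all-trans retinoic acid for a further 24 h. Values within a group are listed below in the order HM1 replicate 1, HM1 replicate 2, 1A4 for controls and 14, 19, 319 for mutants.

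The 18 samples held between 16.5 M and 54.4 M counts on genes. Line 19 at day 2 stood apart: it had the fewest counts, 2.46% of its counts on transcripts without a matched gene against 1.44% to 1.72% in the other 17 samples, and calls on the 10 genes that change without it are given with and without it. The pathway lists were also counted without it, an alternative chosen after seeing the data. Nup133 mRNA lay between 179.5 and 323 CPM (a sample's counts scaled by TMM to a common total) in the 9 control samples and between 14.3 and 37.1 CPM in the 9 mutant samples, so the labels held in every sample. The summed CPM of 8 embryonic stem cell markers was 4138 to 4550.4 in controls and 5049.6 to 5483 in mutants at day 0, 1783 to 1917 and 1874 to 2578 at day 2, and 738 to 840.4 and 467 to 1159 at day 3. That of 5 neural progenitor markers was 57.8 to 159 in controls and 44.5 to 73.5 in mutants at day 0, 198 to 253 and 77.2 to 162 at day 2, and 262 to 319 and 343 to 901 at day 3. Most of this sum at day 2 was Nes, with 187 to 246 CPM in controls and 73.1 to 144 CPM in mutants. None of the 5 markers was called for genotype at day 0 or day 2, and their median log2 fold change at day 2 was 0.26. Pax6 alone was called at day 3, higher in mutants. The part of these marker shifts in the genotype results was not tested. The 10 feeder fibroblast markers are given beside the genotype results, because their sum was lower in mutants at days 2 and 3. The labels name HM1 replicates as biological but do not say whether samples came from separate cultures, so p-values measure the spread between these samples.

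The promoters were searched for the elements that these factors are known to bind, and the windows before a start that hold a match are shown because such elements are the known route from these factors to their target genes. All 10 genes had an entry in the RefSeq promoter sequences (build GRCm38.p6), which run from 250 bases before to 50 bases after the start. The C/EBP-ATF response element was searched as TGATGNAA and the endoplasmic reticulum stress element as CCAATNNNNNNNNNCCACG, each on both strands, and the capitals below mark the match. The windows lie at chr2:119351038-119351067, + strand, chr6:7693214-7693243, - strand, chr3:50443642-50443690, - strand and chr2:34772020-34772048, + strand, and each is printed 5′ to 3′ on the strand of its gene.
Chac1: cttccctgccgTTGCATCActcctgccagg
Asns: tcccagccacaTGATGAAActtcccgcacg
Slc7a11: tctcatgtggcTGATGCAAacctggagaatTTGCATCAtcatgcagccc
Hspa5: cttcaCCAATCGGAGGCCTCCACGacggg
TGATGNAA was found in 4 of the 10 genes and in 4.51% of the 27025 genes with promoters of the same length. The match of Chac1 lay 193 to 186 bases before the start on the reverse strand, and that of Asns 23 to 16 bases before it, inside the first exon of the GENCODE transcript that was counted. Slc7a11 held 2 matches, one on each strand, at 66 to 59 and 47 to 40 bases before the start. Trib3 had its match after the start, at bases 14 to 21, and its sequence is not shown. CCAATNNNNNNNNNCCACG was found in Hspa5 alone among the 10 genes, 65 to 47 bases before the start, and in 0.14% of all these genes. Atf4, Ddit3, Psat1, Phgdh and Ppp1r15a held neither run of letters in this window. A match describes the sequence only.

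Compared per length, the 10 genes spanned several orders of magnitude in control cells at day 0. The level in CPM per kilobase of transcript was 387 ± 93.9 (SD, n = 3) for Hspa5, 219 ± 44.3 for Asns, 163 ± 4.21 for Psat1 and 133 ± 21.7 for Atf4. Phgdh followed at 47.5 ± 2.37 and Ppp1r15a at 29.7 ± 8.24. Trib3, at 11.5 ± 8.01, Ddit3, at 8.60 ± 2.07, and Chac1, at 6.72 ± 7.77, were within 1 SD of each other, and Slc7a11 was lowest at 0.3 ± 0.12. At day 2 the order had changed in the controls, with Psat1 first at 309 ± 33.6 CPM per kilobase and Hspa5 next at 221 ± 21.8. In mutants at day 2, Hspa5 stayed first at 265 ± 33.7 and Psat1 was at 178 ± 24.1. Reads are from bulk RNA, in which fewer cells of a type and less RNA per cell cannot be told apart.

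**Figure D1:**
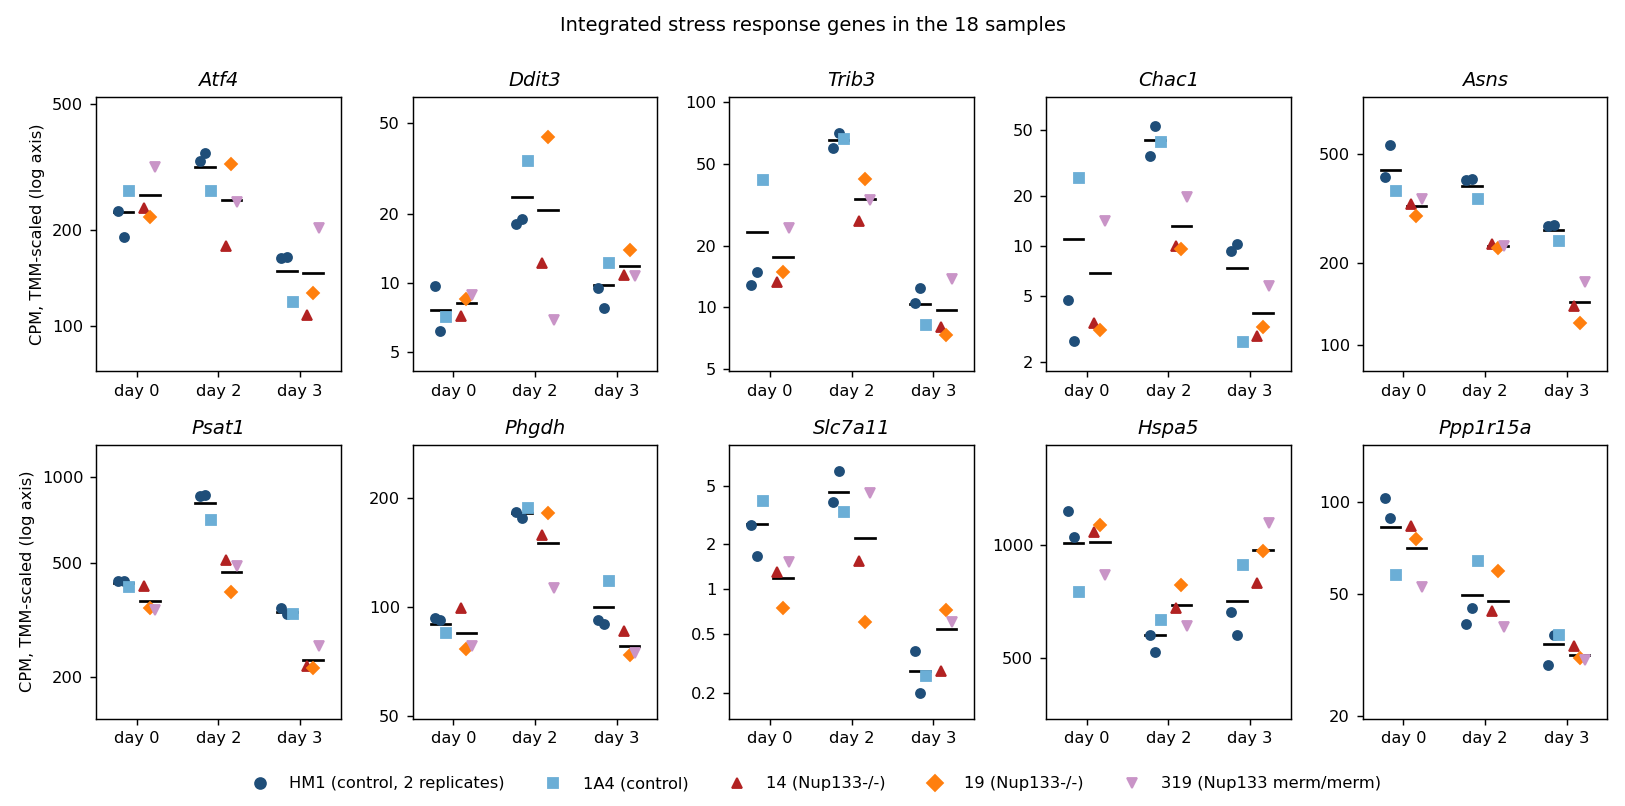
Level of each of the 10 genes in the 18 samples, as TMM-scaled CPM on a log axis, at days 0, 2 and 3. Each point is 1 sample, with controls on the left and mutants on the right of each day, and the black bar is the mean of 3 samples. Trib3 and Chac1 are highest in controls at day 2, and the mutant Asns and Psat1 points lie below all control points at days 2 and 3.

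Between day 0 and day 2, when serum and LIF were replaced by N2B27, control cells raised 5 of these genes and lowered 2. Ddit3, Trib3, Chac1, Psat1 and Phgdh rose and Hspa5 and Ppp1r15a fell, which is 7 of 10 genes called with edgeR's quasi-likelihood test at a Benjamini-Hochberg adjusted p below 0.05. Over all genes tested, 35.2% were called in this step. In the mutants Ddit3, Trib3 and Phgdh rose and Asns fell, which is 4 of 10 genes against 35.9% of all genes. The median log2 fold change of the 10 genes was 0.87 in controls, beside 0.01 over all genes, and 0.57 in mutants, beside 0.06.

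Between day 2 and day 3, when retinoic acid was added, 7 of the 10 genes fell in controls and the same 7 genes fell in mutants: Atf4, Trib3, Chac1, Asns, Psat1, Phgdh and Slc7a11. Over all genes, 21.4% were called in this step in controls and 33.6% in mutants. None of the 10 genes was called higher in either genotype. The median log2 fold change was -1.17 in controls and -0.87 in mutants, beside 0.00 over all genes in each. The steps share the day 2 samples, so a high value at day 2 enters both with opposite sign. All day 3 samples had received retinoic acid, so its effect cannot be told apart from that of a further day in culture. Each gene's change in both steps is drawn in the plot of changes between days.

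**Figure D2:**
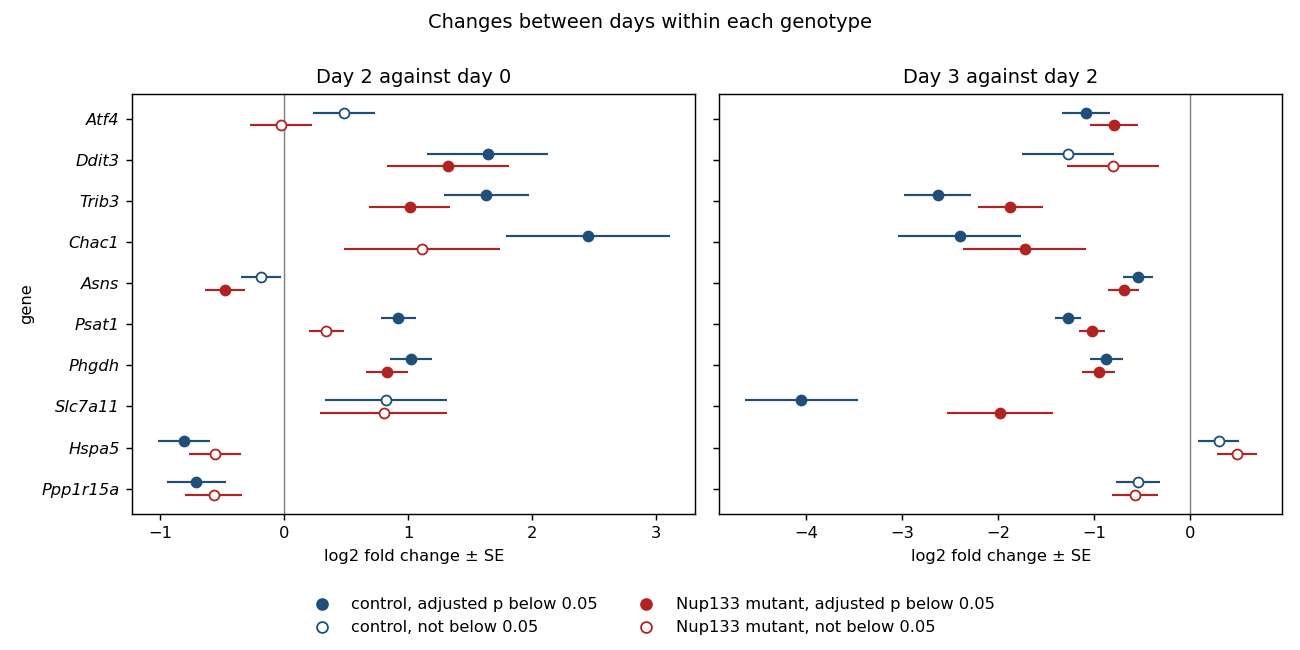
Log2 fold change and SE of each gene from day 0 to day 2 (left) and from day 2 to day 3 (right), in controls (blue) and mutants (red). Filled points have an adjusted p below 0.05. Trib3 and Chac1 lie right of 0 at the first step and left of it at the second, and Slc7a11 has the lowest value of the second step, at -4.05 in controls.

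The comparison of mutants with controls addressed the loss of Nup133 at each day. At day 0 none of the 10 genes was called, against 0.854% of all genes, and 2 of the 10 had an unadjusted p below 0.05. Asns and Psat1, enzymes of asparagine and serine synthesis, were lower in mutants at day 2 and again at day 3, which is 2 of 10 genes called on each day. The background of genes called was 1.60% at day 2 and 5.20% at day 3. The other 8 genes did not pass the test at any day. Median log2 fold changes of the 10 genes were -0.22, -0.54 and -0.16 at days 0, 2 and 3, beside 0.01, 0.02 and 0.02 over all genes. No control and mutant values overlapped, with mutants lower, for Asns and Slc7a11 at day 0, for Trib3, Chac1, Asns and Psat1 at day 2, and for Asns, Psat1 and Phgdh at day 3. Over all genes, 9.70%, 11.7% and 17.6% were separated in this direction at the 3 days.

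**Figure D3:**
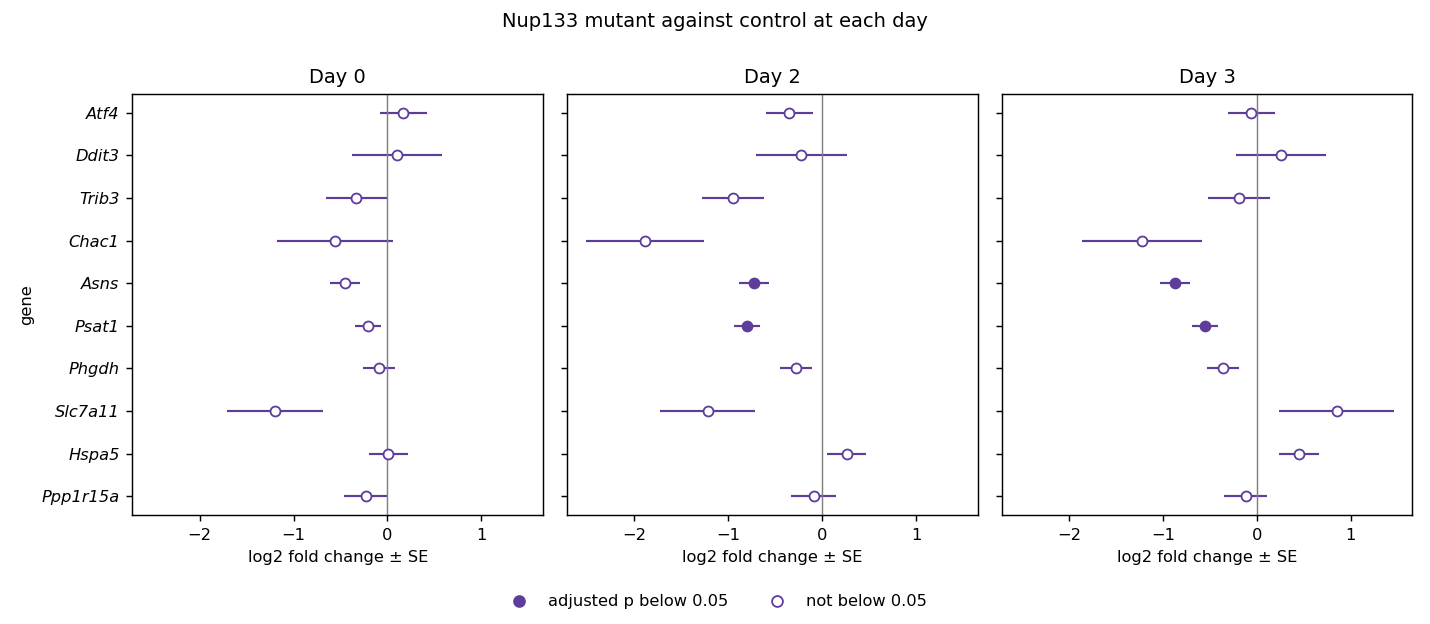
Log2 fold change and SE of each gene in mutants against controls at days 0, 2 and 3. Filled points have an adjusted p below 0.05. Asns and Psat1 are the filled points, left of 0 at days 2 and 3, and no point is filled at day 0.

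The sum of the feeder fibroblast markers was lower in mutants at days 2 and 3, while single markers differed. The summed CPM of the 10 markers was 155 to 328 in controls and 109 to 179 in mutants at day 0, 169.6 to 241 and 93.8 to 125 at day 2, and 255 to 373 and 133 to 216 at day 3. Of the 9 markers tested, Postn, Acta2 and Tagln were called lower in mutants at day 2 and at day 3, and the other 6 were not called. Col3a1, a fibrillar collagen and not called, lay at 12.7 to 16.1 CPM in controls and 22.5 to 40.3 CPM in mutants at day 3. Dcn, a proteoglycan gene and not called, lay at 0.79 to 0.95 CPM in controls and 1.21 to 1.66 CPM in mutants at day 2. Acta2, a smooth muscle actin, was at 46.6 CPM in controls and 6.04 CPM in mutants at day 2. No marker of the list was at 0 in all samples of a group. Their part in the results on Asns and Psat1 was not tested.

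Whether the genotype difference itself changed between days was tested with interaction terms. None of the 10 genes was called between days 0 and 2, between days 2 and 3 or between days 0 and 3, against 0.0219%, 0.0383% and 0.427% of all genes. The fit by edgeR left 1 of the 10 genes with an unadjusted p below 0.05 in each of these tests, and no alternative, DESeq2 included, called any. A gene called in controls and not in mutants is therefore not shown to differ between them.

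Atf4 (transcript ENSMUST00000109605, chr15:80255184-80257541, + strand) encodes the central transcription factor of the response. Control samples held 229.8, 191 and 266 CPM at day 0, 332, 351 and 266 at day 2 and 164, 165 and 119 at day 3. Mutant samples held 236, 221 and 317 CPM at day 0, 179, 325 and 246 at day 2 and 108, 127 and 204 at day 3. All control values at day 3 lay below those at days 0 and 2, and the share of all genes separated this way is not given here. Line 319 kept the highest mutant value at day 3 and line 14 the lowest at day 2. Atf4 mRNA was not called between days 0 and 2 in controls (log2 fold change 0.48 ± 0.25 SE, adjusted p = 0.15) or in mutants (log2 fold change -0.03 ± 0.25 SE, adjusted p = 0.93). In HM1-derived lines alone the control step was 0.72 ± 0.25, which was called just under the threshold of 0.05. Atf4 mRNA fell from day 2 to day 3 in controls (log2 fold change -1.08 ± 0.25 SE, adjusted p = 0.0063) and in mutants (log2 fold change -0.79 ± 0.25 SE, adjusted p = 0.025). The control call was lost without HM1 replicate 1 (adjusted p = 0.07) or 2 (0.075), and the mutant call without line 19 (0.22, log2 fold change -0.47), without line 19 at day 2 alone (0.1, -0.52), without line 14 (0.064) or without HM1 replicate 1 (0.056).

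Genotype made no called difference for Atf4, with log2 fold changes of 0.17 ± 0.25, -0.35 ± 0.25 and -0.06 ± 0.25 at days 0, 2 and 3 and adjusted p-values of 0.93, 0.45 and 0.93. Set against the controls of its own background, the log2 difference of Atf4 at day 3 was -0.61 in line 14, -0.38 in line 19 and 0.78 in line 319. The lines made from HM1 and the blastocyst-derived line thus lay on opposite sides of their controls at that day.

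Ddit3 (transcript ENSMUST00000026475, chr10:127290774-127296288, + strand) encodes CHOP, a partner of ATF4 that promotes cell death when stress persists. Its level was 9.72, 6.17 and 7.06 CPM in controls and 7.17, 8.53 and 8.81 in mutants at day 0. At day 2 it was 18.1, 19.00 and 34.2 in controls and 12.2, 43.3 and 6.87 in mutants, and at day 3 9.47, 7.78 and 12.2 in controls and 10.8, 13.9 and 10.7 in mutants. Line 19 at day 2 held the highest of the 18 values, and line 319 on that day was below all day 2 controls and within the day 0 range. Ddit3 rose from day 0 to day 2 in controls (log2 fold change 1.64 ± 0.49 SE, adjusted p = 0.016), a call lost without any 1 of the 3 control series (adjusted p = 0.053 without HM1 replicate 1, 0.089 without replicate 2 and 0.14 without 1A4). The rise in mutants (log2 fold change 1.32 ± 0.49 SE, adjusted p = 0.045) rested on line 19: without its day 2 sample the log2 fold change was 0.25 (adjusted p = 0.54), and without all days of line 19 it was 0.32 (0.51). That call also ended without HM1 replicate 1 (0.081), HM1 replicate 2 (0.084), 1A4 (0.078) or line 14 (0.11), and with the series of each line as a block (0.078).

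The step from day 2 to day 3 was not called for Ddit3 in controls (log2 fold change -1.27 ± 0.48 SE, adjusted p = 0.071). All control values at day 3 lay below those at day 2, and the share of all genes separated this way is not given here. The control step was called without the day 2 sample of line 19 (adjusted p = 0.0026), without line 19 altogether (0.0041), without line 319 (0.022) and with the series as a block (0.042). Over all genes these fits called 6138, 6362, 5462 and 3987 in that step, against 3918 in the fit of all samples. In mutants the step was -0.80 ± 0.48 with an adjusted p of 0.21. Mutants and controls differed by -0.22 ± 0.48 at day 2, adjusted p = 0.83, and the 3 mutant lines spread widely around their own controls, with log2 differences of -0.60 in line 14, 1.22 in line 19 and -2.31 in line 319. Without the day 2 sample of line 19 the genotype difference was -1.29, which was called just under the threshold of 0.05. The transcript shares 68 exon bases with Mars on the opposite strand, 13 with Gm4189 on the opposite strand and 105 with another annotated gene named Ddit3 on the same strand. Whether the authors counted by strand is not given in the sources used here, so the Ddit3 level is uncertain by the reads on these bases.

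Trib3 (transcript ENSMUST00000040312, chr2:152337422-152344032, - strand) encodes a pseudokinase that ATF4 and CHOP induce and that in turn restrains ATF4. Its control values were 12.9, 14.8 and 41.9 CPM at day 0, 59.8, 70.4 and 66.2 at day 2 and 10.5, 12.4 and 8.20 at day 3. Its mutant values were 13.3, 14.9 and 24.5 CPM at day 0, 26.5, 42.00 and 33.2 at day 2 and 8.05, 7.35 and 13.7 at day 3. At day 0 the blastocyst-derived lines 1A4 and 319 were higher than the other 4 samples, and at day 2 every control was above every mutant. Trib3 rose from day 0 to day 2 in controls (log2 fold change 1.63 ± 0.34 SE, adjusted p = 0.0016) and fell from day 2 to day 3 (log2 fold change -2.63 ± 0.35 SE, adjusted p = 7.5e-05), and neither control call was lost in any alternative. In mutants it rose (log2 fold change 1.01 ± 0.33 SE, adjusted p = 0.027) and then fell (log2 fold change -1.87 ± 0.34 SE, adjusted p = 8.0e-04). The mutant rise was lost without line 19 (adjusted p = 0.17), without its day 2 sample (0.096) and without line 14 (0.13).

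The genotype difference of Trib3 at day 2 was -0.95 ± 0.33 on the log2 scale with an unadjusted p of 0.011 and an adjusted p of 0.13, so it did not pass the test over all genes. Against their own controls the lines differed by -1.29 in line 14, -0.63 in line 19 and -0.99 in line 319 at that day. At day 0 and day 3 the adjusted p-values were 0.86 and 0.79.

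Chac1 (transcript ENSMUST00000028780, chr2:119351229-119354381, + strand), an ATF4 target, encodes an enzyme that degrades glutathione. Controls held 4.71, 2.67 and 25.7 CPM at day 0, 34.96, 52.7 and 42.4 at day 2 and 9.26, 10.2 and 2.63 at day 3. Mutants held 3.43, 3.09 and 14.1 CPM at day 0, 10.02, 9.58 and 19.7 at day 2 and 2.84, 3.26 and 5.74 at day 3. As with Trib3, 1A4 and 319 were the highest of the day 0 samples, and at day 2 the 3 controls lay above the 3 mutants. Chac1 rose in controls from day 0 to day 2 (log2 fold change 2.45 ± 0.66 SE, adjusted p = 0.009) and fell from day 2 to day 3 (log2 fold change -2.40 ± 0.64 SE, adjusted p = 0.014). These calls were lost without HM1 replicate 1 (adjusted p = 0.1 and 0.078) or HM1 replicate 2 (0.13 and 0.067).

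In mutants the first step of Chac1 was not called (log2 fold change 1.11 ± 0.63 SE, adjusted p = 0.18), but it was called without 1A4 (adjusted p = 0.0087) and with a background term for each day (0.01, log2 fold change 1.90). Chac1 fell in the second step in mutants (log2 fold change -1.72 ± 0.64 SE, adjusted p = 0.049), a call lost with the series as a block (0.079). It was also lost without line 14 (0.18), line 19 (0.14), the day 2 sample of line 19 (0.088), line 319 (0.12) or HM1 replicate 1 (0.084).

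Mutants had a lower Chac1 mean than controls at day 2, 13.1 against 43.4 CPM, with a log2 fold change of -1.89 ± 0.63 and an adjusted p of 0.12. The difference was called without 1A4 (-2.28, adjusted p = 0.0073), in HM1-derived lines alone (-2.16, 0.0097) and with DESeq2 (-1.89, 0.03). At day 3 it was -1.22 ± 0.64 with an adjusted p of 0.29, and called without 1A4 (0.02) and in HM1-derived lines alone (0.013). Set against own-background controls, the day 3 difference was -1.76 in line 14, -1.56 in line 19 and 1.11 in line 319, so that the blastocyst-derived pair differed in the opposite direction from the HM1-derived lines.

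Ppp1r15a (transcript ENSMUST00000167273, chr7:45522922-45526146, - strand) encodes GADD34, the phosphatase subunit that removes phosphate from eIF2 and so ends the response. Its group means were highest at day 0, with 103, 88.7 and 58.05 CPM in controls and 83.9, 75.7 and 52.8 in mutants. At day 2 it was 39.9, 45.04 and 64.3 in controls and 44.1, 59.4 and 39.1 in mutants, and at day 3 29.4, 36.9 and 36.9 in controls and 33.9, 30.9 and 30.4 in mutants CPM. The course was opposite to that of Trib3 and Chac1 at the first step: Ppp1r15a fell in controls from day 0 to day 2 (log2 fold change -0.71 ± 0.24 SE, adjusted p = 0.027). This call came from the HM1 replicates, since 1A4 went from 58.05 to 64.3 CPM, and it was lost without HM1 replicate 1 (log2 fold change -0.38, adjusted p = 0.38) or 2 (-0.59, 0.24). Without 1A4 it was -1.18 (0.0017).

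None of the other steps of Ppp1r15a was called, with -0.54 ± 0.23 (adjusted p = 0.11) in controls from day 2 to day 3 and -0.57 ± 0.23 (0.069) and -0.57 ± 0.24 (0.07) in mutants. The first mutant step was called without 1A4 (0.019), without the day 2 sample of line 19 (0.028) and with a background term for each day (0.011), and the second without 1A4 (0.023). Genotype differences lay between -0.23 and -0.09 at the 3 days, with adjusted p-values from 0.81 to 0.86. The transcript shares 6 exon bases with Tulp2 on the opposite strand.

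Asns (transcript ENSMUST00000031766, chr6:7675169-7693254, - strand) encodes asparagine synthetase, which makes asparagine from aspartate and glutamine and is a standard readout of amino acid shortage. The control values were 412, 536 and 364 CPM at day 0, 400.1, 405 and 341 at day 2 and 271, 275 and 239.7 at day 3. The mutant values were 326, 295 and 341 CPM at day 0, 234, 226 and 230.2 at day 2 and 139, 120.3 and 169.6 at day 3. At each of the 3 days all mutant samples lay below all controls, and the mutant values at day 2 were close together. Mutants were lower, with log2 fold changes of -0.73 ± 0.16 at day 2 (adjusted p = 0.033) and -0.87 ± 0.16 at day 3 (adjusted p = 0.0081). At day 0 the difference was -0.45 ± 0.16, unadjusted p = 0.012 and adjusted p = 0.26.

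These Asns calls were lost without HM1 replicate 1 (adjusted p = 0.27 at day 2 and 0.099 at day 3), HM1 replicate 2 (0.22 and 0.077) or line 14 (0.059 and 0.051), with log2 fold changes that stayed between -0.69 and -0.74 at day 2 and between -0.85 and -0.84 at day 3. In lines against their own controls, the day 2 differences were -0.78 in line 14, -0.83 in line 19 and -0.57 in line 319, and the day 3 differences were -0.98 in line 14, -1.18 in line 19 and -0.50 in line 319. All 3 lines had the same direction on both days, and line 319 was the nearest to its control.

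Over the days, Asns in controls was not called from day 0 to day 2 (log2 fold change -0.19 ± 0.16 SE, adjusted p = 0.37), while Trib3, Chac1, Psat1 and Phgdh rose. In mutants it fell in that step (log2 fold change -0.48 ± 0.16 SE, adjusted p = 0.028), a call lost without HM1 replicate 1 (adjusted p = 0.07) or line 14 (0.12) and with a background term for each day (0.058). From day 2 to day 3 Asns fell in controls (log2 fold change -0.54 ± 0.16 SE, adjusted p = 0.022) and in mutants (log2 fold change -0.69 ± 0.16 SE, adjusted p = 0.0042). The control call was lost without HM1 replicate 1 (0.19), HM1 replicate 2 (0.14) or 1A4 (0.054).

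Psat1 (transcript ENSMUST00000025542, chr19:15904678-15925059, - strand) encodes phosphoserine aminotransferase, the second enzyme of serine synthesis. It stood at 431, 433 and 413 CPM in controls and 415, 347 and 341 in mutants at day 0. At day 2 the values were 856, 864 and 708 in controls and 513, 394 and 489 in mutants, and at day 3 they were 347, 330.1 and 332 in controls and 218, 214 and 256 in mutants. The groups overlapped at day 0, and every mutant was below every control at days 2 and 3. Psat1 was lower in mutants, with log2 fold changes of -0.80 ± 0.14 at day 2 (adjusted p = 0.011) and -0.55 ± 0.14 at day 3 (adjusted p = 0.033). At day 0 it was -0.21 ± 0.14 (adjusted p = 0.68).

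The genotype calls of Psat1 were lost without HM1 replicate 1 (adjusted p = 0.17 at day 2 and 0.21 at day 3) or 2 (0.19 and 0.2), and at day 3 also without 1A4 (0.092) or line 14 (0.097). With the 6 samples of day 2 fitted alone, neither Psat1 (adjusted p = 0.45) nor Asns (0.43) was called, and the log2 fold changes were -0.78 and -0.71. That fit called none of the 16736 genes it tested. Line by line, Psat1 at day 2 differed from its controls by -0.75 in line 14, -1.13 in line 19 and -0.53 in line 319, and at day 3 by -0.64 in line 14, -0.66 in line 19 and -0.37 in line 319. As for Asns, the 3 lines shared the direction and line 319 differed least.

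From day 0 to day 2 Psat1 rose in controls (log2 fold change 0.92 ± 0.14 SE, adjusted p = 1.3e-04), and in mutants the step was 0.34 ± 0.14 (adjusted p = 0.065). Without line 19 the mutant step was called (0.43, adjusted p = 0.013), likewise without its day 2 sample (0.48, 0.0036). From day 2 to day 3 Psat1 fell in controls (log2 fold change -1.27 ± 0.14 SE, adjusted p = 1.6e-05) and in mutants (log2 fold change -1.02 ± 0.14 SE, adjusted p = 7.7e-05), and no alternative changed these calls or the control rise.

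Phgdh (transcript ENSMUST00000065793, chr3:98313170-98339990, - strand) encodes phosphoglycerate dehydrogenase, which commits a glycolytic intermediate to serine synthesis. It held 93.1, 92.1 and 84.9 CPM in controls and 99.3, 76.5 and 77.8 in mutants at day 0. At day 2 the controls were at 183, 177 and 188 and the mutants at 158, 182 and 113, and at day 3 they were at 91.8, 89.9 and 118 in controls and 85.9, 73.6 and 74.7 in mutants. Day 2 was highest in all 6 series, and line 319 had the lowest day 2 value. Phgdh rose to day 2 in controls (log2 fold change 1.02 ± 0.17 SE, adjusted p = 2.9e-04) and in mutants (log2 fold change 0.83 ± 0.17 SE, adjusted p = 0.0014), and fell to day 3 in controls (log2 fold change -0.87 ± 0.17 SE, adjusted p = 0.0019) and in mutants (log2 fold change -0.95 ± 0.17 SE, adjusted p = 7.2e-04). Of these 4 calls only the control fall was lost when a replicate was left out (adjusted p = 0.061 without HM1 replicate 1 and 0.055 without replicate 2). Genotype differences were -0.09 ± 0.17, -0.28 ± 0.17 and -0.36 ± 0.17 at days 0, 2 and 3, with adjusted p-values of 0.96, 0.36 and 0.22. Its sequence is shared in part with 9 processed pseudogenes at up to 98.7% identity, so reads could be split between them.

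Slc7a11 (transcript ENSMUST00000029297, chr3:50364938-50443611, - strand) encodes the light chain of the cystine-glutamate exchanger and is a target of ATF4 and NRF2. It was near the lower end of what the counts can measure, with 1308 counts in all over the 18 samples. Control samples were at 2.70, 1.66 and 3.95 CPM at day 0, 3.89, 6.30 and 3.31 at day 2 and 0.38, 0.2 and 0.26 at day 3, and mutant samples at 1.30, 0.74 and 1.53 CPM at day 0, 1.54, 0.6 and 4.45 at day 2 and 0.28, 0.72 and 0.6 at day 3. The controls separated by day 3, which lay below every earlier control value, and the share of all genes separated this way is not given here. Slc7a11 fell from day 2 to day 3 in controls (log2 fold change -4.05 ± 0.59 SE, adjusted p = 1.8e-04) and in mutants (log2 fold change -1.98 ± 0.55 SE, adjusted p = 0.012), and the mutant call was lost without line 14 (adjusted p = 0.084) or line 319 (log2 fold change -1.35, adjusted p = 0.097). Line 19 had 0.60 CPM at day 2 and 0.72 CPM at day 3.

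The step from day 0 to day 2 was not called for Slc7a11 in controls (log2 fold change 0.82 ± 0.49 SE, adjusted p = 0.21) or mutants (log2 fold change 0.80 ± 0.51 SE, adjusted p = 0.24). All mutant values were below all control values at day 0 (-1.20 ± 0.51, adjusted p = 0.39). At day 2 line 319 was within the control range while lines 14 and 19 were below it (-1.22 ± 0.51, adjusted p = 0.2), and without line 319 the difference was called (-1.90, adjusted p = 0.047). The fit without line 319 called 1374 of 18690 genes for genotype at day 2, against 292 of 18273 with it. At day 3 the genotype difference of Slc7a11 was 0.85 ± 0.61 (adjusted p = 0.45). Parts of the transcript are up to 96.5% identical to other genes over at most 375 bases.

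Hspa5 (transcript ENSMUST00000100171, chr2:34772095-34776531, + strand) had the highest level per length of the 10 genes in both genotypes at days 0 and 3. Its values were 1234, 1054 and 748 CPM in controls and 1087, 1132 and 832 in mutants at day 0. At day 2 they were 578, 518 and 632 in controls and 679.6, 785 and 610.0 in mutants, and at day 3 663, 578 and 883 in controls and 791, 967 and 1145 in mutants. All samples at day 2 were below all samples at day 0 within each genotype, and the share of all genes separated this way is not given here. Hspa5 fell from day 0 to day 2 in controls (log2 fold change -0.81 ± 0.21 SE, adjusted p = 0.008), and this call was lost without HM1 replicate 1 (adjusted p = 0.14) or 2 (0.1). In mutants the step was -0.56 ± 0.21 with an adjusted p of 0.051, just over the threshold. It was called with RLE scaling (0.049), with DESeq2 (0.035), without 1A4 (0.029) and without line 19 at day 2 (0.031).

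From day 2 to day 3 Hspa5 was not called in controls (log2 fold change 0.30 ± 0.21 SE, adjusted p = 0.35) or mutants (log2 fold change 0.49 ± 0.21 SE, adjusted p = 0.088). Every mutant sample at day 3 exceeded every mutant sample at day 2, and the share of all genes separated this way is not given here. Mutants and controls differed by 0.45 ± 0.21 at day 3, with an adjusted p of 0.23 in the fit of all samples and 0.041 when the 6 samples of that day were fitted alone. The fit of day 3 alone called 2546 of 16867 genes, against 951 of 18273 in the fit of all samples. Each mutant line was above its own control at that day, by 0.35 in line 14, 0.64 in line 19 and 0.37 in line 319.

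**Figure D4:**
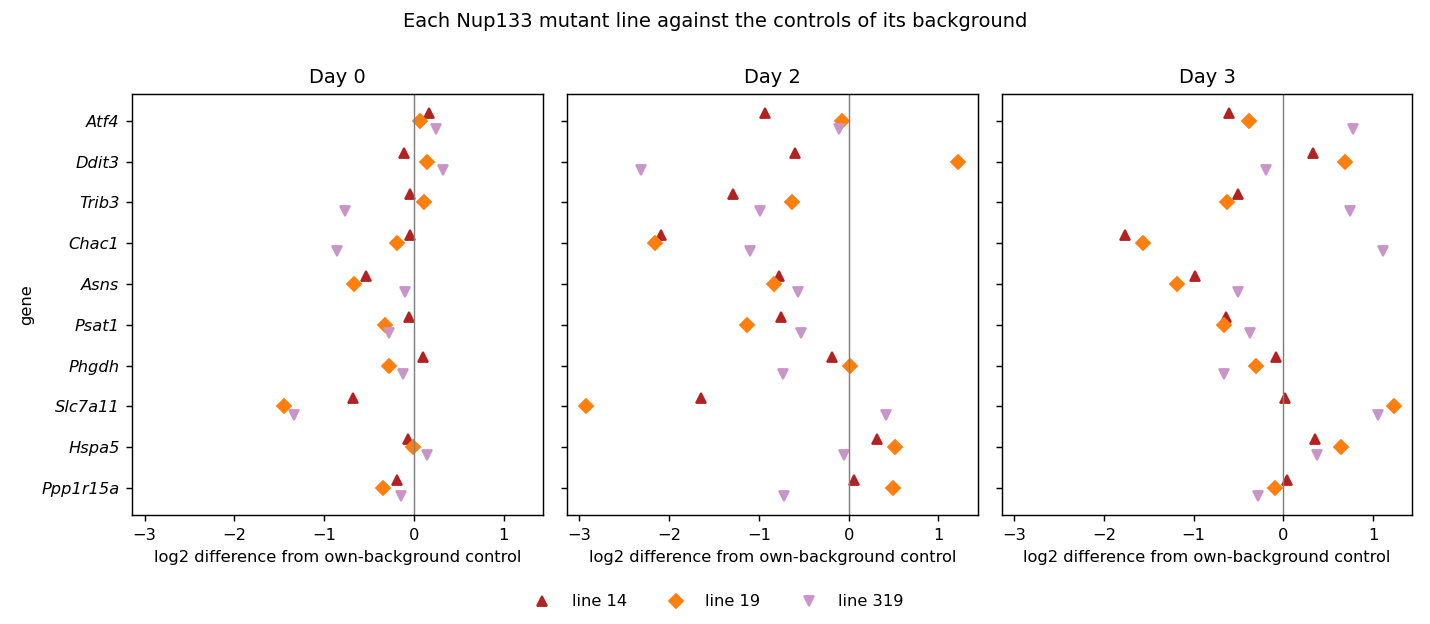
Log2 difference of each mutant line from the controls of its own background (HM1 for lines 14 and 19, 1A4 for line 319) at days 0, 2 and 3, 1 point per line and gene and no error bar. Asns and Psat1 are left of 0 in all 3 lines at every day, and Atf4, Trib3 and Chac1 have line 319 right of 0 and the other 2 lines left of it at day 3.

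Other genes of the pathway were followed in 8 lists, and their counts stand beside the share of all genes called for genotype, 0.854% at day 0, 1.60% at day 2 and 5.20% at day 3. Of 13 genes of amino acid transport and synthesis, 5 were called lower in mutants and none higher at day 2, and again 5 lower and none higher at day 3, with median log2 fold changes of -0.79 and -0.39. At day 2 the lowest were Gpt2, an alanine aminotransferase (-1.46 ± 0.29, adjusted p = 0.022), Slc1a4, a neutral amino acid transporter (-1.22 ± 0.23, adjusted p = 0.015), and Slc7a5, the large neutral amino acid transporter (-0.93 ± 0.18, adjusted p = 0.018). Gpt2 (-1.23 ± 0.29, adjusted p = 0.026) and Slc1a4 (-1.17 ± 0.23, adjusted p = 0.011) were also lower at day 3, together with Pycr1 of proline synthesis (-1.14 ± 0.19, adjusted p = 0.0054). Of 10 genes of serine, glycine and folate metabolism, 2 were called lower at day 2: Mthfd2, a mitochondrial folate enzyme (-1.12 ± 0.21, adjusted p = 0.016), and Psph, which completes serine synthesis (-0.59 ± 0.13, adjusted p = 0.037). None of these 10 was called at day 3. Among 13 genes of the tRNA charging list, aminoacyl-tRNA synthetases and the tRNA export gene Xpot, Aars alone was called at day 2 (-0.88 ± 0.16, adjusted p = 0.014). None was called at day 3. At day 0 no gene of these 3 lists was called. Over all genes, 292 were called at day 2 and 951 at day 3. Without HM1 replicate 1 these were 22 and 37, and without HM1 replicate 2 they were 25 and 17. Calls of single list genes in those fits are not given here.

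In the other lists, Nfe2l1, a bZIP factor of proteasome control, was the 1 gene called of 7 tested bZIP factors, at day 2 (-1.13 ± 0.13, adjusted p = 6.8e-04) and day 3 (-0.49 ± 0.13, adjusted p = 0.044). Among 14 stress outputs, Vldlr, a lipoprotein receptor, was lower at day 0 (-1.49 ± 0.31, adjusted p = 0.029) and day 2 (-1.36 ± 0.29, adjusted p = 0.033), and the angiogenic factor gene Vegfa was lower at day 2 (-1.18 ± 0.21, adjusted p = 0.012) and day 3 (-0.93 ± 0.21, adjusted p = 0.02). Sesn2, a sensor of leucine that both ATF4 and p53 can induce, was higher at day 3 (1.00 ± 0.16, adjusted p = 0.0044). Of 21 genes of endoplasmic reticulum folding, Herpud1 was lower at day 2 (-1.32 ± 0.18, adjusted p = 0.0024) and Pdia3 higher at day 3 (0.66 ± 0.16, adjusted p = 0.028). Of 16 genes of eIF2, its kinases and eIF2B, the haem-regulated kinase gene Eif2ak1 was higher at day 3 (0.53 ± 0.12, adjusted p = 0.019). None of 9 genes of the NRF2 and glutathione list was called at any day. Without line 19 at day 2, Vldlr at day 2 lost its call (adjusted p = 0.056), and 1 of 7 bZIP factors was lower at day 0. At day 2, 4 of 13 amino acid genes and 2 of 13 genes of the tRNA charging list were then lower. Day 3 counts without that sample were 2 of 10 lower for serine, glycine and folate, 3 of 13 lower for tRNA charging, 4 of 21 higher for endoplasmic reticulum folding, 2 of 16 higher for eIF2 and its kinases, and 1 higher and 1 lower of the 7 bZIP factors.

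The day steps of the same lists stand beside shares of all genes called of 35.2% and 35.9% from day 0 to day 2, in controls and mutants, and of 21.4% and 33.6% from day 2 to day 3. In controls 8 of 13 genes of the tRNA charging list were called higher in the first step and none lower. In the second step 12 of the 13 were called lower, among them Aars (-1.16 ± 0.16, adjusted p = 1.2e-04). In mutants 2 were higher in the first step and 10 lower in the second. Of the amino acid transport and synthesis list, 7 of 13 genes rose and 1 fell in the first control step, led by Gpt2 (2.05 ± 0.30, adjusted p = 1.0e-04), and 11 fell in the second, led by Cth (-1.72 ± 0.21, adjusted p = 3.4e-05). In mutants 6 were higher and 3 lower in the first step, and 9 lower in the second. Of 10 serine, glycine and folate genes, 4 were higher and 1 lower in the first control step and 7 lower in the second, against 1 higher and 2 lower, then 6 lower, in mutants. Of 14 stress outputs, 8 were higher and 1 lower in the first step of both genotypes, and in the second 1 was higher in each, with 7 lower in controls and 5 in mutants. The 7 bZIP factors had 4 higher in the first control step, led by Jdp2 (1.55 ± 0.43, adjusted p = 0.012), Atf5 (1.34 ± 0.25, adjusted p = 9.1e-04) and Cebpg (1.15 ± 0.18, adjusted p = 1.5e-04), and 3 lower in the second. In mutants 2 were higher in the first step, and in the second 1 was lower and Atf3 was higher (2.20 ± 0.51, adjusted p = 0.0044). Of 21 endoplasmic reticulum genes, 8 were lower and 1 higher in the first control step, led by Dnajb9 (-1.38 ± 0.35, adjusted p = 0.0066), and 6 lower in mutants. In the second step 1 was higher and 1 lower in controls, and 5 were higher in mutants, led by Dnajc3 (1.11 ± 0.19, adjusted p = 5.1e-04). Of 16 genes of eIF2, its kinases and eIF2B, 1 was higher and 6 lower, then 1 higher and 2 lower, in controls, and 7 lower, then 3 higher and 2 lower, in mutants. Of 9 NRF2 and glutathione genes, 1 was higher and 3 lower, then 4 lower, in controls, and 2 lower, then 3 lower, in mutants. Without line 19 at day 2, 5 genes of eIF2 and its kinases were lower and 4 endoplasmic reticulum genes higher in the second control step. In the second mutant step 5 NRF2 and glutathione genes were then lower. The other counts of these steps moved by 1 gene or by at most 1.5 times. Over all 18922 genes, that fit called 6138 in the second control step and 6058 in the second mutant step. With that sample 3918 and 6141 of 18273 genes were called.

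**Figure D5:**
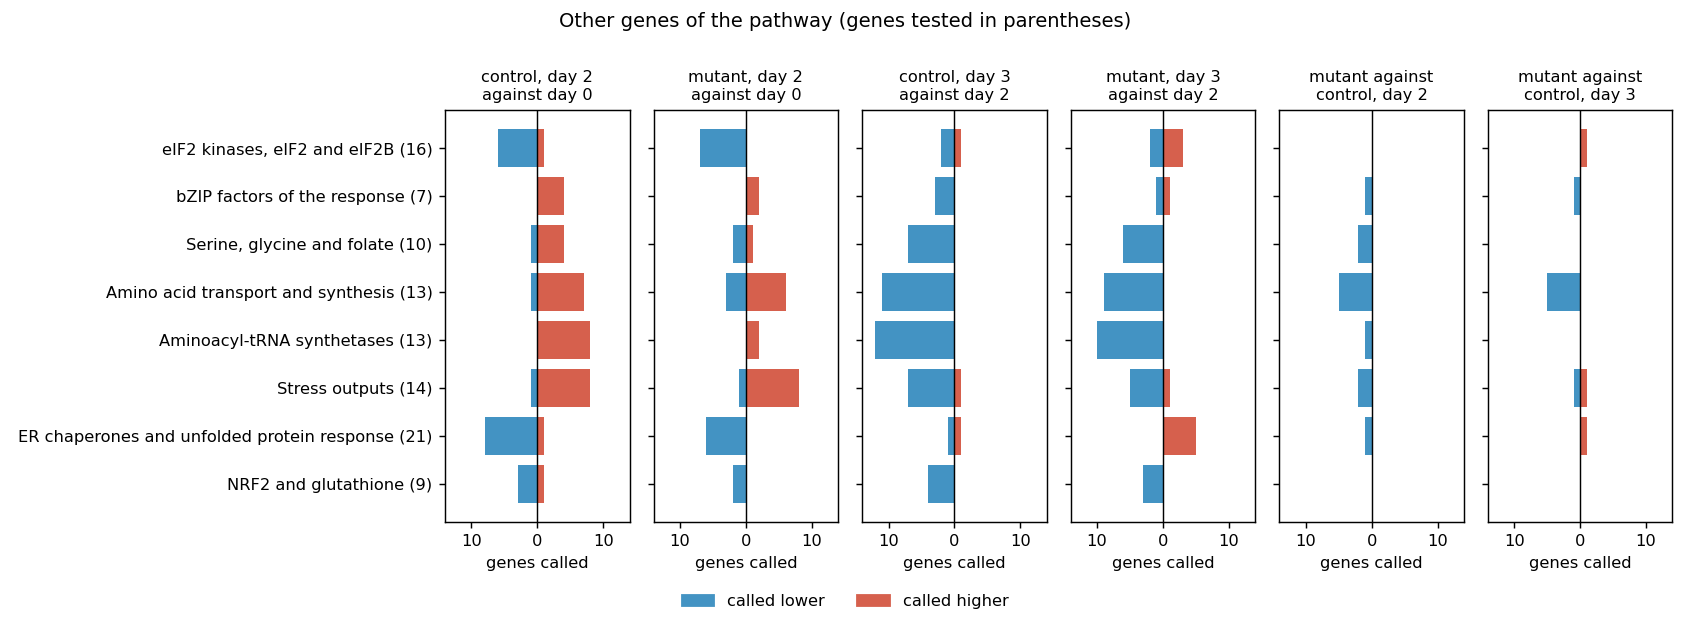
Number of genes called higher (red, to the right) and lower (blue, to the left) in 8 lists of pathway genes, for 6 comparisons, with the number of genes tested after each list name. The tRNA charging list, which includes the export gene Xpot, has 8 genes higher and then 12 lower in controls. The amino acid list has 5 genes lower in mutants at day 2 and 5 at day 3.

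The pattern of 4 of the genes was compared with that of 9503 expressed genes by Pearson's r of log2 CPM over the 18 samples, which share lines and days. Atf4 was most like Mars (0.91), a tRNA charging gene, Hax1 (0.88) and Cenpo (0.86). Trib3 was most like Hax1 (0.94) and the tRNA charging genes Cars (0.92) and Yars (0.90). Asns was most like Cd68 (0.93), Wdr45b (0.93) and Zmiz2 (0.92). Hspa5 was most like Zwint (0.89), Plau (0.87) and Syvn1 (0.86), the last a ubiquitin ligase of the endoplasmic reticulum. Among the 10 genes themselves, the pair most alike over the 18 samples was Trib3 and Chac1 (0.89), followed by Atf4 and Trib3 (0.85), and Chac1 and Hspa5 ran in opposite directions (-0.78).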

How the data were processed

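Messenger RNA of 18 samples, each in 4 technical libraries, was measured with a strand-specific TruSeq kit, per the labels' protocols. The authors deposited unnormalised read counts for each Ensembl transcript. The submitters' processing notes name bcl2fastq 2.17.1.14, STAR 2.4.0k, SAMtools, HTSeq and the build mm10; their roles, the annotation release and the strand setting are not given in the sources used here. Technical libraries were summed, since the chi-square per degree of freedom between them was 1.01 to 1.03. A read was counted for every transcript it overlapped (a sample's transcripts summed to 2.62 to 2.92 times its gene counts), so each gene was read from its transcript with the highest total. Names and positions came from GENCODE M21 (GRCm38), which matched 108214 of 110379 transcripts; from 1.44% to 2.46% of a sample's counts had no match and were left out.

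The tests used R 4.3.3 with limma 3.58.1 and edgeR 4.0.16: filterByExpr, TMM, with levels given as TMM-scaled CPM (counts per 1e6 counts), and robust quasi-likelihood fits with 6 groups and a term for HM1 or blastocyst background, 18 samples and 11 residual degrees of freedom. P-values were adjusted by Benjamini-Hochberg over the 18273 genes tested, and an adjusted p below 0.05 was a call. The test was checked on simulated data. Alternatives were DESeq2 1.42.0, RLE scaling, no filter, no background term or one for each day, HM1-derived lines alone, other transcript choices, the samples of 1 day, the sample of line 19 at day 2 left out, each series left out and a block. Days of a series are paired because they come from 1 line, and deviations of its samples correlated above 0.1 in 16 of 18 pairs (-0.09 to 0.40). Control and mutant samples of the same number share their background, HM1 or blastocyst. Their deviations correlated above 0.1 in 5 of 9 pairs (-0.05 to 0.33). HM1 replicates differed by 6.66 to 11.25 chi-square per degree of freedom and were counted as separate samples.

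The 10 genes and the pathway and marker lists were chosen with earlier results of these data known. All 10 genes are named throughout; from each pathway list the called genes with the largest changes, at most 3 a comparison; and for likeness the 3 genes with the highest r among those with a mean of at least 5 CPM, clone names and some chromosomes left out. The libraries carry no molecular identifiers, so counts are not independent molecules.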

Additional observations from a re-analysis of the deposited data

How the results depend on the processing

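Of 1150 values recomputed for the 70 results of single genes under 17 alternatives, 1005 kept their direction and side of the threshold, 74 lost a call, 38 gained one and 33 changed sign, none of the last with a call on either side. With 3 samples a group, leaving out 1 series moved the number of the 10 genes called from 2 to between 0 and 3 for genotype at day 2 and between 0 and 2 at day 3. Over all genes, those fits called between 22 and 1374 at day 2 and between 17 and 2019 at day 3. Leaving out 1 series also moved the 7 genes of controls to between 3 and 7 at the first step and between 3 and 8 at the second, and the 4 and 7 of mutants to between 1 and 6 and between 4 and 8. Over all genes, between 2833 and 8904 and between 1215 and 6362 were then called in the control steps. In the mutant steps these were between 3813 and 7718 and between 4340 and 7583. Samples of day 2 fitted alone gave 0 of the 10 genes, and 0 of all 16736 genes tested in that fit. No filter on low counts gave 1 gene for genotype at day 3, where Psat1 was lost (adjusted p = 0.08), and 816 of all 30658 genes tested in that fit. A replicate block, by replicate number for genotype and by series for the day steps, gave 0, 2 and 2 genes for genotype at days 0, 2 and 3, 7 and 8 for the control steps and 3 and 6 for the mutant steps. Over all genes the block gave 133, 215 and 716 for genotype, 6493 and 3987 for the control steps and 6467 and 5966 for the mutant steps. In mutants, Ddit3 at the first step was lost with the longest transcript (log2 fold change 0.34, adjusted p = 0.5), with transcripts added up (0.055) and without a filter (0.12), and Asns without a filter (0.063). With no background term, Chac1 at the first control step (0.051) and Trib3 at the first (0.068) and Chac1 at the second mutant step (0.089) were lost. In HM1-derived lines alone, Ddit3 at the first control step (0.069), Asns at the first mutant step (0.07) and Slc7a11 at the second (0.096) were lost. A background term for each day was chosen after seeing the data, and with it Chac1 (0.067) and Slc7a11 (0.06) at the second mutant step were lost. Sign changed in HM1-derived lines alone for genotype at day 0 in Ddit3 (-0.0), Trib3 (0.04) and Hspa5 (-0.03), at day 2 in Ddit3 (0.56) and Ppp1r15a (0.28), and at the first mutant step in Atf4 (0.15). Atf4 at that step was also 0.01 with transcripts added up, 0.0 with the longest transcript and 0.17 with a background term for each day. Hspa5 at day 0 was -0.0 without a filter, Ddit3 at day 3 was -0.08 with the longest transcript, and Ddit3 at the second mutant step was 0.29 without line 19 at day 2. With a replicate left out, genotype values that changed sign ranged at day 0 from -0.06 to 0.24 for Atf4, -0.05 to 0.30 for Ddit3, -0.56 to 0.12 for Trib3, -1.30 to 0.13 for Chac1, -0.22 to 0.0 for Phgdh and -0.15 to 0.18 for Hspa5. At day 2 they ranged from -1.28 to 0.39 for Ddit3 and -0.28 to 0.26 for Ppp1r15a, and at day 3 from -0.39 to 0.14 for Atf4, -0.47 to 0.04 for Trib3 and -0.26 to 0.06 for Ppp1r15a. Atf4 at the first mutant step ranged from -0.37 to 0.15 and Ddit3 at the second from -1.15 to 0.13. Over all genes, DESeq2 called 556, 1400 and 2063 genes for genotype at days 0, 2 and 3 against 156, 292 and 951, and leaving out HM1 replicate 2 called 18, 25 and 17. RLE scaling moved the median of all genes by at most 0.014 on the log2 scale. The cause of these changes was not tested.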

Other observations

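Among the deviations of each sample from its group mean, over the 18 samples, Trib3 and Chac1 had a Pearson's r of 0.84 and Atf4 and Trib3 of 0.72, while Ddit3 and Psat1 had -0.70 and Chac1 and Hspa5 -0.70. Samples of 1 line share their source, and no p is given for these values. Among the day 2 mutants, line 19 held the highest Ddit3, 43.3 CPM, and the lowest Psat1, 394 CPM. The r of Ddit3 and Psat1 without that sample was not computed. Psat1 and Phgdh, consecutive enzymes of serine synthesis, were alike over the 18 samples (0.79) and not in the deviations (-0.14).

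Fgf21, a secreted factor gene of the stress output list, was low, with group means from 0.015 to 0.84 CPM. By edgeR's quasi-likelihood test it rose from day 0 to day 2 in controls (log2 fold change 3.08 ± 0.69 SE, adjusted p = 0.003) and in mutants (3.90 ± 0.98, adjusted p = 0.0061). From day 2 to day 3 it fell in controls (-1.86 ± 0.62, adjusted p = 0.042) and in mutants (-2.77 ± 0.85, adjusted p = 0.021). In the NRF2 list, the glutathione synthesis gene Gclm fell from day 2 to day 3 in controls (-1.68 ± 0.18, adjusted p = 1.5e-05) and in mutants (-1.50 ± 0.18, adjusted p = 3.0e-05). Hmox1, which degrades haem, fell in the same step, with -1.64 ± 0.20 in controls (adjusted p = 3.8e-05) and -1.43 ± 0.20 in mutants (adjusted p = 9.0e-05).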
